A study of Arabidopsis thaliana with 30 samples.

Results

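UGT73B4, UGT73B5 and UGT88A1 are 3 Arabidopsis genes for UDP-glycosyltransferases, chosen by their symbols in the platform's probe annotation from 13350 genes that a probe set names alone. Each has 1 probe set, and all 3 passed the filter on low signal, as did 9082 of those genes. UGT73B4 and UGT73B5 (AT2G15490 and AT2G15480) are neighbours, and in the TAIR10.1 annotation the span of UGT73B5 takes in that of UGT73B4, while UGT88A1 is AT3G16520. Whether either probe set also detects transcripts of the other gene was not tested. The 3 genes were proposed with results of these arrays known, over all 10 groups. Their levels and differences are therefore given as a description, with standard errors from a fit across all probe sets and with no p-value.

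The study followed explants of wild-type Columbia-0 seedlings, aged 10 days and raised under 16 h light per day at 22 °C, during the early stage of callus induction. Root segments and aerial organs were sampled after 0, 12, 24, 48 or 96 h on callus-inducing medium, and 3 arrays, labelled as biological replicates, were run for each organ and time. All explants were wild type, and none of the samples was kept off the medium, so time on the medium cannot be told apart from cutting, ageing or the hour of harvest. The labels name no stress treatment, and neither the medium's composition nor the harvest hour is given in the sources used here.

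Family 1 glycosyltransferases move a sugar from a UDP-sugar donor onto small acceptor molecules, among them hormones, flavonoids, phenylpropanoids and foreign compounds. The added sugar makes the acceptor more soluble and often less active, and prepares it for storage in the vacuole. UGT73B4 and UGT73B5 belong to group D of the family. The enzyme UGT73B4 can glucosylate breakdown products of the explosive TNT, and UGT73B5 is known as a pathogen-responsive gene that takes part in resistance to Pseudomonas syringae. UGT88A1, of another branch, glucosylates quercetin in the test tube.

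Values are MAS5 signal, a background-corrected brightness on a linear scale. Differences are on the log2(signal + 22) scale, which understates the changes of dim genes. Fold differences are taken from that scale too, so they are not ratios of the printed signals. A signal of 87.4 is the level that at least 3 arrays had to exceed for a probe set to be tested. Signal of one probe set is not set against that of another, since probe sets differ in brightness for reasons other than transcript level. Whole explants were extracted, so fewer cells of a type and less RNA per cell cannot be told apart.

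UGT73B4 kept a high signal in root explants throughout and came up from a low signal in aerial explants. In root explants its signals were 2792, 1821 and 1643 at 0 h, 1683, 2019 and 2017 after 12 h, 1138, 1074 and 1472 after 24 h, 2146, 1374 and 1799 after 48 h, and 2273, 2227 and 2271 after 96 h. The lowest root group was 24 h, the only one whose values all lay below those of 0 h. The root change was -0.09 ± 0.301 (SE, n = 3 arrays a group) at 12 h, -0.73 after 24 h, -0.22 after 48 h and 0.15 after 96 h. Centring the arrays on their medians gave -0.07 for 96 h, which turned its sign, and without root 0 h replicate 1, the brightest of the 15 root arrays, the 12 and 48 h values turned to 0.13 and 0.01. Values below those of 0 h without overlap at 24 h were seen in 22.2% of the 16765 tested probe sets. The 24 h group also lay wholly below 12 h (-0.63, as in 13.4%), and the 96 h group wholly above 48 h (0.37, as in 16.9%).

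In aerial explants UGT73B4 gave 9.9, 21.1 and 42.3 at 0 h, 178.5, 321.6 and 212.2 after 12 h, 168.2, 117.9 and 148.8 after 24 h, 194.7, 131.2 and 491.5 after 48 h, and 667.6, 628.0 and 737.1 after 96 h. All 3 arrays at 0 h lay under 87.4, and every later array lay above them. Groups higher than 0 h without overlap made up 16.9%, 15.2%, 21.7% and 29.8% of tested probe sets at 12, 24, 48 and 96 h. The aerial difference from 0 h was 2.50 ± 0.301 after 12 h, 1.89 after 24 h, 2.53 after 48 h and 3.97 after 96 h, the last a 15.7-fold difference. Because the 0 h group has a low signal, the size of these values depends on the pseudocount, and at 96 h it was 5.03 with none and 2.65 with 100. The 3 arrays of 48 h were the most scattered of the 5 aerial groups, and without aerial 48 h replicate 3 the 48 h difference was 2.03 and the step from 24 to 48 h was 0.14 in place of 0.64. The step from 48 to 96 h was 1.44, with all 96 h values above all 48 h values, as in 14.8% of tested probe sets.

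UGT73B5, its neighbour, started as root-high but did not stay at its starting level in roots. Its root signals were 2365, 2086 and 1786 at 0 h, 843, 1599 and 1134 after 12 h, 410.1, 448 and 774 after 24 h, 589, 547 and 587 after 48 h, and 556, 422 and 448 after 96 h. Every array from 12 h on lay below the lowest of 0 h, and the 24, 48 and 96 h groups overlapped in a low plateau. The change from 0 h was -0.83 ± 0.324 after 12 h, -1.94 after 24 h, -1.81 after 48 h and -2.08 after 96 h, the last a 4.23-fold difference. Groups lower than 0 h without overlap made up 20.1%, 22.2%, 23.2% and 24.0% of tested probe sets at these times. Most of the decline therefore lay in the first 24 h, with a step of -1.11 from 12 to 24 h (without overlap, as in 13.4% of tested probe sets), of 0.13 from 24 to 48 h and of -0.27 from 48 to 96 h.

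Aerial signals of UGT73B5 were 62.7, 15.6 and 115.4 at 0 h, 176.1, 224.6 and 276.2 after 12 h, 112.9, 108.3 and 154.7 after 24 h, 173.5, 155.1 and 323.7 after 48 h, and 119.7, 151.2 and 162.1 after 96 h. The highest group was 12 h, the 24 h values overlapped those of 0 h, and the 96 h values lay just above the brightest 0 h array. Differences from 0 h were 1.69 ± 0.324 after 12 h, 0.94 after 24 h, 1.59 after 48 h and 1.12 after 96 h. They rest on a group in which 1 of 3 arrays exceeded 87.4. Without aerial 0 h replicate 2, the dimmest array, the 96 h value was 0.62, and without replicate 3 it was 1.55. With a pseudocount of 100 it was 0.61. In contrast to UGT73B4, which reached its aerial maximum at 96 h, UGT73B5 had a step of -0.47 from 48 to 96 h, with overlapping values.

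UGT88A1 ran opposite to both, high in aerial organs and just under the filter signal of 87.4 in fresh roots. Root signals were 70.8, 86.6 and 85.5 at 0 h, 246.6, 400.0 and 338.0 after 12 h, 980.2, 571 and 696 after 24 h, 1510.1, 1258 and 1565 after 48 h, and 1088, 719 and 1206 after 96 h. Each group up to 48 h lay wholly above the one before it, and at 96 h all values lay below those of 48 h. The steps from 12 to 24 h and from 24 to 48 h were upward without overlap in 14.8% and 13.8% of tested probe sets, and the last step downward in 12.5%. The root difference from 0 h was 1.75 ± 0.23 after 12 h, 2.87 after 24 h, 3.83 after 48 h and 3.29 after 96 h, or 3.35-fold, 7.33-fold, 14.2-fold and 9.77-fold. Values above those of 0 h without overlap made up 27.0%, 33.9%, 37.1% and 41.3% of tested probe sets. All 3 arrays at 0 h lay under 87.4, and the 96 h difference was 3.6 with no pseudocount and 2.58 with 100.

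Aerial signals of UGT88A1 were 5854, 6971 and 5101 at 0 h, 2737, 2785 and 3101 after 12 h, 4450.5, 4151 and 5481 after 24 h, 4803, 2734 and 2369 after 48 h, and 1791, 1522 and 1390.1 after 96 h. The course dipped at 12 h, stood at 24 h at values that overlapped those of 0 h, and ended at its lowest. Differences from 0 h were -1.04 ± 0.23 after 12 h, -0.35 after 24 h, -0.91 after 48 h and -1.91 after 96 h, the last a 3.76-fold difference. Groups lower than 0 h without overlap were seen in 18.3%, 18.4% and 22.0% of tested probe sets at 12, 48 and 96 h. The step from 12 to 24 h was 0.70 and that from 48 to 96 h was -1.0, each without overlap, as in 7.5% upward and 12.7% downward of tested probe sets. Without aerial 48 h replicate 1, the brightest of its group, the 48 h difference was -1.21 and the last step was -0.70.

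**Figure D1:**
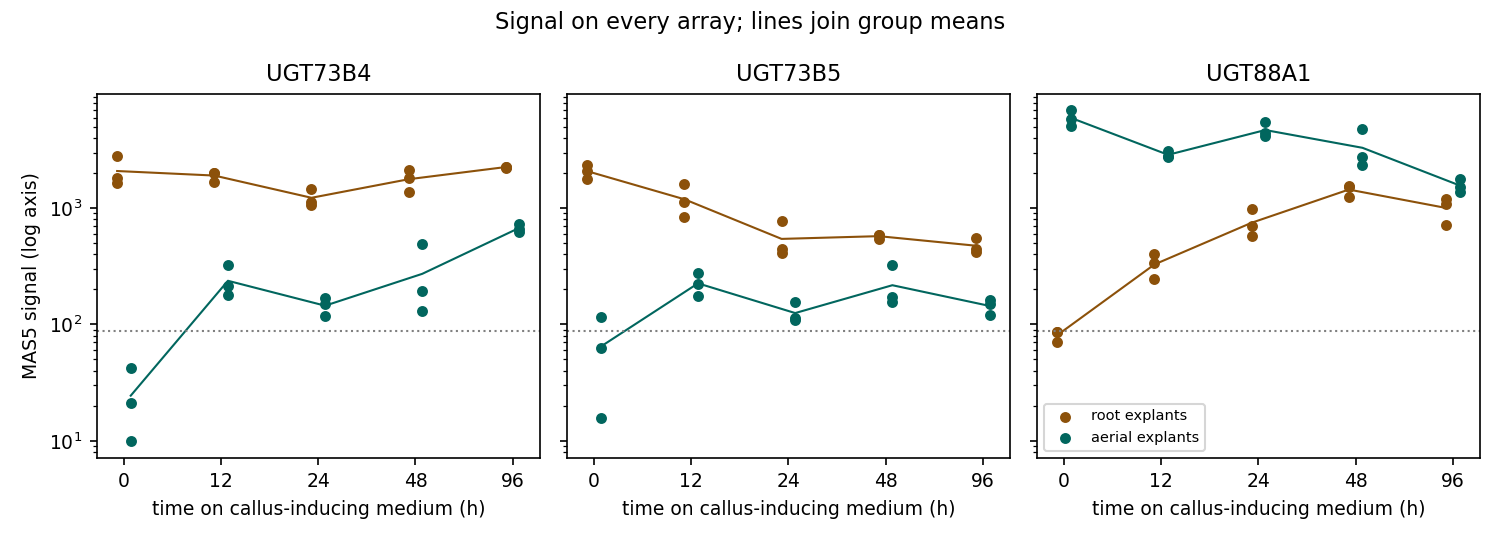
MAS5 signal (log axis) of UGT73B4, UGT73B5 and UGT88A1 against hours on callus-inducing medium, with 1 point for each array, lines through the means of 3 arrays and a dotted line at the filter signal of 87.4. UGT73B4 and UGT73B5 lie higher in root explants and UGT88A1 higher in aerial explants at every time, and the organs lie closest at 48 or 96 h.

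Ordering the 10 groups by mean shows how far the groups of each gene separate by organ. For UGT73B4 the 5 root groups came first, from 2257 ± 26.1 (SD, n = 3) at 96 h to 1228 ± 214 after 24 h, and no neighbouring pair among them was free of overlap. The aerial groups followed, led by 96 h at 678 ± 55.2, and the lowest root array (1074) stood above the highest aerial one (737). For UGT73B5 all root groups again came before all aerial groups, from 2079 ± 289 in roots at 0 h to 64.6 ± 49.9 in aerial organs at 0 h. Its root group at 0 h and its root group at 12 h each stood clear of the next, whereas the aerial groups overlapped one another from rank 6 down to rank 10 between neighbours. UGT88A1 had all aerial groups first, from 5975 ± 941 at 0 h to 1568 ± 204 after 96 h, and the last of these overlapped the highest root group, 1444 ± 164 after 48 h.

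The organs approached each other in all 3 genes, by different routes. Root minus aerial differences of UGT73B4 were 5.53, 2.93, 2.90, 2.78 and 1.71 at 0, 12, 24, 48 and 96 h, each ± 0.301. Those of UGT73B5 were 4.78, 2.27, 1.90, 1.38 and 1.58, each ± 0.324. For UGT88A1 they were -5.86, -3.07, -2.64, -1.12 and -0.66, each ± 0.23. Root values above aerial ones without overlap made up 33.3%, 34.8%, 38.8%, 36.5% and 36.4% of tested probe sets at the 5 times, and the reverse 31.3%, 26.7%, 27.2%, 26.6% and 25.5%. The values of the organs did not overlap at any time for any of the 3, with UGT73B4 and UGT73B5 above in roots, as throughout in 10.2% of tested probe sets, and UGT88A1 above in aerial explants, as in 10.4%.

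A smaller difference between the organs at 96 h than at 0 h was common, in 59.6% of tested probe sets, and the median size of the difference was 0.84 at 0 h and 0.633 after 96 h. The route differed by gene. In UGT73B4 the aerial side moved and the root side ended near its start. In UGT73B5 both sides moved towards each other, roots more than aerial explants, and in UGT88A1 both did as well, with the larger movement again in roots.

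**Figure D2:**
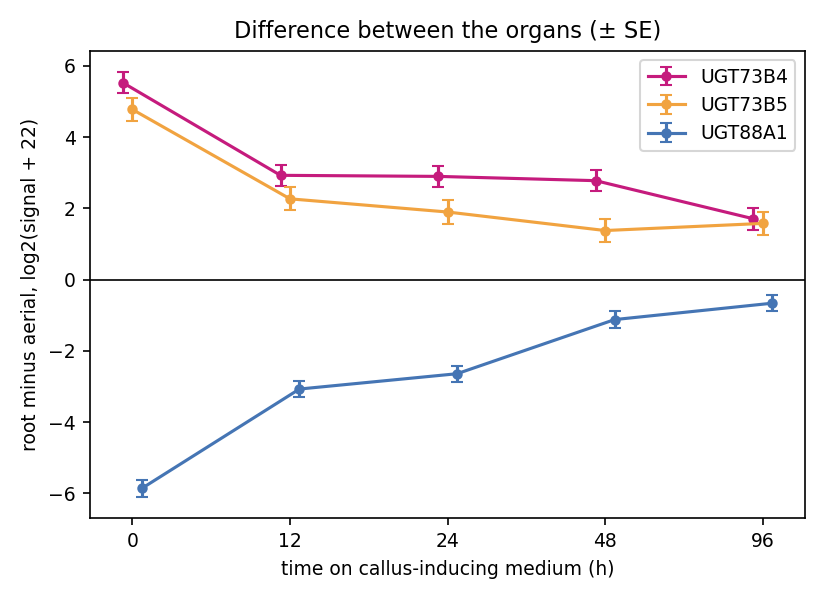
Root minus aerial difference on the log2(signal + 22) scale against hours on the medium, for each gene, with bars of ± 1 standard error from the fit. All lines end nearer to 0 than they began, from 5.53, 4.78 and -5.86 at 0 h to 1.71, 1.58 and -0.66 after 96 h.

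The root change minus the aerial change puts the time courses side by side. At 96 h it was -3.82 ± 0.426 for UGT73B4, -3.2 ± 0.458 for UGT73B5 and 5.20 ± 0.325 for UGT88A1. A root group lower and an aerial group higher than their own 0 h values at 96 h, both without overlap, was the pattern of UGT73B5 and of 7.35% of tested probe sets. The reverse held for UGT88A1 and for 7.64%.

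Aerial explants at 96 h can also be set beside fresh roots. There UGT73B4 was still 2.94-fold lower (-1.56 ± 0.301) and UGT73B5 12.6-fold lower (-3.66 ± 0.324, and -3.15 with a pseudocount of 100) than in roots at 0 h, as were 25.3% of tested probe sets without overlap. UGT88A1 was higher by 3.94 ± 0.23, without overlap as in 35.0%, against root arrays that all lay under 87.4, and the value was 4.27 with no pseudocount and 3.2 with 100. All 3 genes thus still differed from fresh roots without overlap.

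Over the 10 group means, UGT73B4 and UGT73B5 correlated with r = 0.868, and each correlated negatively with UGT88A1 (-0.816 and -0.94). The points share 2 organs with large offsets, which weigh heavily in these values. Over the 5 root means alone the neighbours correlated with r = 0.321, and over the 5 aerial means with 0.735, while UGT73B5 and UGT88A1 gave -0.952 in roots and -0.597 in aerial explants. In roots UGT73B4 ended 0.15 from its 0 h value after a low at 24 h, and UGT73B5 ended at -2.08.

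Genes with the most similar pattern were ranked by the correlation of group means over the 10 groups. Among genes with a symbol, UGT73B4 was followed by LEP, an AP2/ERF factor (r = 0.979), the gibberellin receptor GID1B (0.976) and HMT-1, a homocysteine methyltransferase (0.975). Nearest to UGT73B5 were the cation transporter gene OCT4 (0.971), the receptor-like kinase gene B120 (0.966) and CCR2, a cinnamoyl-CoA reductase (0.964). UGT88A1 was followed by CCS, the copper chaperone of superoxide dismutase (0.976), VPS9B (0.959) and DAL1 (0.954). Over all genes, the closest were AT5G14105 (0.986), AT2G32020 (0.985) and AT3G06330 (0.987), of which only the last also came first over the 30 arrays. By Spearman's correlation of group means these genes ranked 463, 26 and 71, and the genes with a symbol from 4 (OCT4) to 272 (VPS9B). The order thus depends on the measure, and the offsets between the organs weigh on these values too.

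The other genes of the family give the setting. By symbol or description 47 other UDP-glycosyltransferase genes have a probe set of their own, and 34 of them passed the filter. The following tests are from limma, with Benjamini-Hochberg adjusted p taken across all 16765 tested probe sets. This list and those below were chosen with earlier results of these data known, so their p-values give no independent support. At 12 h, 12 of the 34 rose and 1 fell in root explants (21.7% and 15.5% of all tested probe sets), and 8 rose and 3 fell in aerial explants (13.5% and 13.8%). The gene that fell in roots was UGT71C1 (-1.41, adjusted p = 0.0119), and it was not called without a pseudocount, without root 0 h replicate 3 or without root 12 h replicate 1. By 96 h, 9 rose and 6 fell in roots, where 36.2% and 21.0% of all probe sets did, and 9 rose and 5 fell in aerial explants, where 26.0% and 18.6% did. The root counts at 96 h became 6 and 8 with arrays centred on their medians, which took the share of rises among all calls from 63.3% to 51.6%. Without root 0 h replicate 2, 5 of the 34 rose in roots at 96 h, and without aerial 0 h replicate 1, 3 fell in aerial explants.

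Changes within the family went in every combination. In both organs 4 genes rose by 96 h (UGT71C3, UGT87A2, UGT84A3 and UGT84A4) and 1 fell (UGT72B3), as did 11.4% and 3.67% of all tested probe sets. Another 3 fell in roots and rose in aerial explants, the directions of the UGT73B5 values: UGT71C1, UGT76B1 and UGT72E2 (5.71% of all tested probe sets). UGT71B1 alone rose in roots and fell in aerial explants, the directions of the UGT88A1 values (5.53%). In 14 genes neither change passed the test (24.6% of all tested probe sets), which does not show that they were stable. The median change of the 34 was -0.13 in roots and 0.15 in aerial explants, against 0.26 and 0.128 over all tested probe sets.

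UGT76B1, an enzyme that glucosylates isoleucic acid and N-hydroxypipecolic acid and so acts on salicylic acid defence, fell in roots from 1669 ± 325 to 444 ± 99.9 (SD, n = 3) by 96 h (-1.86 ± 0.415 SE, adjusted p = 3.66e-04) and rose in aerial explants from 42.6 ± 44.8 to 142 ± 35.9 (1.54 ± 0.415, adjusted p = 0.00313). UGT71C1 fell by 2.44 in roots (adjusted p = 2.84e-05) and rose by 1.12 in aerial explants (adjusted p = 0.0379). Its aerial signal was 45.6 ± 50.3 at 0 h, a mean under 87.4, and 104 ± 37.8 after 96 h. UGT72E2, which glucosylates monolignols, fell by 1.12 in roots (adjusted p = 0.00116) and rose by 1.93 in aerial explants (adjusted p = 1.53e-06), and its relative UGT72E3 fell by 2.10 in roots. UGT71B1 rose by 1.94 in roots (adjusted p = 3.07e-06) and fell by 0.94 in aerial explants (adjusted p = 0.0106).

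The largest rise of the family in roots was that of UGT71C3, which glucosylates methyl salicylate, from 144 ± 33.9 to 1649 ± 312 (3.34 ± 0.376, adjusted p = 1.71e-08), and it rose by 2.34 in aerial explants. UGT76C2, a cytokinin N-glucosyltransferase, rose by 2.67 in roots (adjusted p = 8.42e-13), and its aerial value of -0.08 did not pass the test (adjusted p = 0.753). UGT87A2, which acts in flowering time, rose by 2.01 in roots and 2.16 in aerial explants, and UGT85A2 by 1.86 in aerial explants. The flavonol glycosyltransferases UGT78D1 (-2.88) and UGT78D2 (-2.41) fell in aerial explants.

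**Figure D3:**
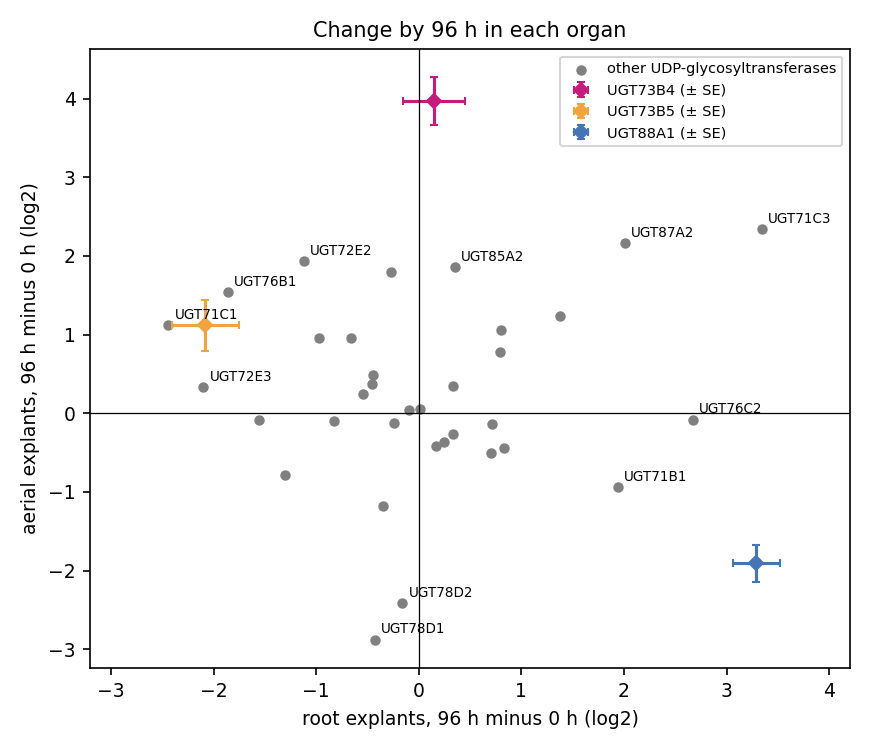
Log2 change from 0 h to 96 h in root explants (x axis) and aerial explants (y axis) for 34 other UDP-glycosyltransferase genes in grey and for UGT73B4, UGT73B5 and UGT88A1 as coloured diamonds with ± 1 standard error. UGT73B4 has the highest aerial value (3.97), UGT73B5 lies near UGT76B1 and UGT71C1 (-2.08 and 1.12), and UGT88A1 lies at the lower right (3.29 and -1.91).

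Few close relatives of UGT73B4 and UGT73B5 were tested. Of 11 other listed UGT73 genes, 3 were tested: UGT73D1, UGT73C7 and UGT73B1. UGT73C1 and UGT73C2 did not pass the filter on low signal, and no probe set of their own was matched to the rest. UGT73D1 was root-high at 0 h (304 ± 85.6 against 10.6 ± 12.4, a difference of 3.35, adjusted p = 1.36e-08). It fell by 1.56 in roots by 96 h (adjusted p = 0.00123), as UGT73B5 was lower there. Its aerial value of -0.09 did not pass the test, and with aerial means of 10.6 and 7.43, under 87.4, a missing call says little. UGT73C7 was also root-high at 0 h, by 2.38 (adjusted p = 1.77e-05), and its changes by 96 h of 0.79 and 0.78 did not pass the test. UGT73B1, the only other UGT73B gene tested, gave 258 ± 135 in roots and 313 ± 53.6 in aerial organs at 0 h. The difference of -0.35 did not pass the test (adjusted p = 0.346). The aerial rise of UGT73B1 at 12 h passed, at 1.10 (adjusted p = 0.00968).

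At 0 h, 11 of the 34 family genes were higher in roots and 13 higher in aerial organs (31.9% and 30.2% of all tested probe sets), and at 96 h 7 and 12 (28.9% and 21.2%). The difference between the organs was smaller at 96 h than at 0 h in 19 of 34, or 55.9%. The root minus the aerial change was called positive in 9 and negative in 3 after 12 h (17.5% and 13.5% of all tested probe sets) and in 7 and 10 after 96 h (29.0% and 23.0%). For 12 h the negative count was 5 without aerial 0 h replicate 3 and 6 under median centring, which took the positive share of all calls from 56.4% to 45.9%. UGT76C2 turned from aerial-high (-1.08) to root-high (1.68), both called. How many of all tested probe sets did so was not counted.

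**Figure D4:**
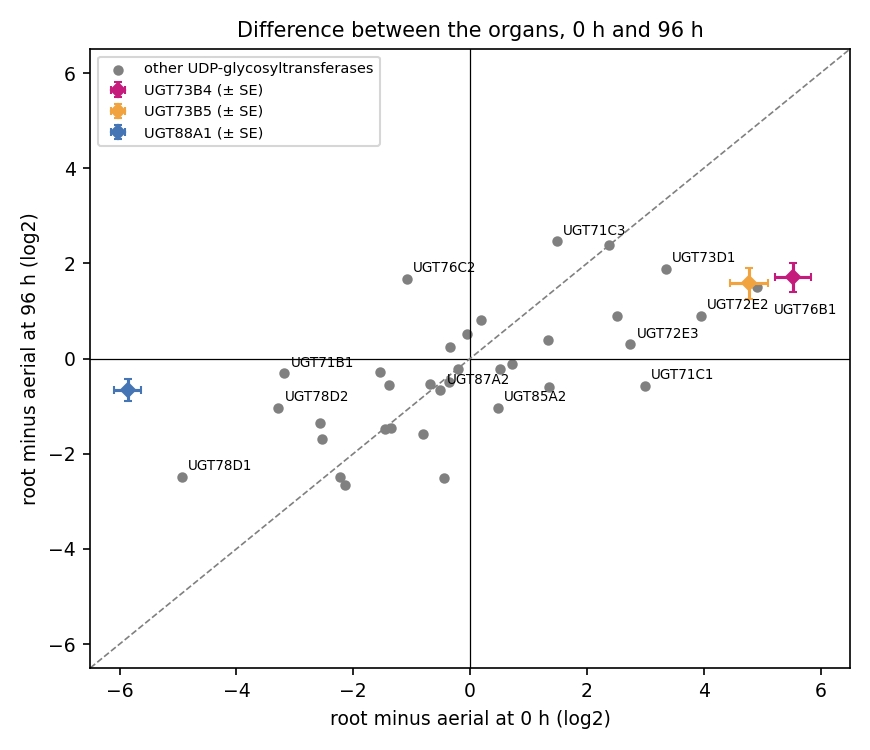
Root minus aerial log2 difference at 0 h (x axis) and at 96 h (y axis) for the same 34 genes in grey and for UGT73B4, UGT73B5 and UGT88A1 as coloured diamonds with ± 1 standard error; the dashed line marks equal differences. UGT73B4 (5.53 and 1.71), UGT73B5 (4.78 and 1.58) and UGT88A1 (-5.86 and -0.66) lie on the side of the line nearer 0 after 96 h.

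Few listed partners in detoxification and salicylic acid response were tested. These lists, too, were chosen with earlier results of these data known, and their adjusted p-values are to be read with that limit. Of 25 listed detoxification genes 3 were tested, and no probe set of their own was matched to the others. GSTU25, a tau glutathione transferase, fell in roots from 6506 ± 1458 to 2543 ± 592 (-1.35 ± 0.389, adjusted p = 0.00412) and rose in aerial explants from 67.3 ± 14.2 to 1569 ± 474 (4.12 ± 0.389, adjusted p = 8.11e-10). AT2G04050, a gene of the MATE transporter family, fell by 1.45 in roots, and its aerial value at 96 h was -0.16 (adjusted p = 0.778) following a rise of 1.84 by 12 h. AER, an alkenal reductase, rose by 4.12 in roots at 12 h and by 0.97 after 96 h, a call that the data without root 0 h replicate 3 did not give (adjusted p = 0.139). In aerial explants AER rose by 1.78 after 12 h.

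Of 9 salicylic acid genes 3 were tested, 2 of them glycosyltransferases of the family list. GRX480, a glutaredoxin that binds TGA factors, fell in roots from 6529 ± 521 to 191 ± 37.2 (-4.96 ± 0.455, adjusted p = 3.63e-10). In aerial explants it did not pass the test (0.00, adjusted p = 0.998), with means of 42.2 at 0 h and 39.6 after 96 h. UGT74F1 passed in neither organ at 96 h, at 0.25 and -0.37. Its means were 59.9 and 71.7 in roots and 61.0 and 36.7 in aerial explants. These GRX480 aerial and UGT74F1 means all lay under 87.4, so a missing call says little about them. Of 9 flavonoid genes 3 were tested, and UGT78D1, UGT78D2 and DFR (-2.39 ± 0.452, adjusted p = 7.6e-05) all fell in aerial explants by 96 h, where UGT88A1 was lower too. None of these 3 passed the test in roots at 96 h. The root means at 0 and 96 h were 20.8 and 6.17 for UGT78D1 and 49.9 and 16.3 for DFR. These lay under 87.4, so a missing root call says little about these genes. No gene of the list of TGA factors and their partner SCL14 (0 of 8) was tested here. No probe set of their own was matched to these genes, nor to the untested salicylic acid and flavonoid genes. Their absence from the tests therefore says nothing about their signal.

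Of 7 leaf markers 3 were tested (RCA, LHCB4.2 and PSAN), and all 3 were called higher in aerial than in root explants at 0 h and at 96 h. Their summed signal was 64000 to 87790 in aerial organs at 0 h and 7040 to 9767 after 96 h, and 178 to 396 in all root groups. The lower aerial UGT88A1 signal at 96 h thus came with lower leaf markers, whose part in it was not tested. In roots LHCB4.2 and PSAN lay under 87.4 on every array from 12 h on. The part of leaf markers in the root UGT88A1 values was not tested either.

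Of 10 root markers 5 were tested, and EXPA7, AGL21, AGL42 and the peroxidase gene AT5G17820 were called higher in roots at 0 h, whereas EXPA18 was not (0.20, adjusted p = 0.791). At 96 h the call held for AGL21 and AGL42, and the differences of AT5G17820 and EXPA18 were -0.75 and -0.51, neither called. Root markers moved in roots as well, with rises of EXPA7 (3.16) and EXPA18 (2.96) at 12 h and a fall of AT5G17820 (-1.19) at 96 h. In aerial explants their summed signal was 136 to 274 at 0 h, 92.6 to 318 after 12 h and 1039 to 1388 after 96 h, most of the last from AT5G17820, which rose from 106 ± 57.1 to 1031 ± 156. AGL21 rose too, by 1.90, and EXPA7, EXPA18 and AGL42 were not called there at 96 h. At 12, 24 and 48 h none of the 5 root markers was called in aerial explants by limma at an adjusted p below 0.05. At an unadjusted p below 0.05 the counts were 0, 0 and 1, the last AT5G17820 (1.20, adjusted p = 0.0739). At these times 4, 3 and 4 of the markers lay under 87.4 on every aerial array, so a missing call says little about them. The part of root markers in the aerial UGT73B4 values was not tested.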

How the data were processed

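Total RNA from 30 explant samples was hybridised to 1-colour Affymetrix arrays. The deposited values are signal intensity from MAS5, per the submitters' processing notes, with a 2% trimmed mean of 500 on every array. The authors' signal ran from 0.1 to 57102, and array medians from 139.1 to 182.7. The number of arrays limits the precision. Across tested probe sets, arrays of a group had correlations from 0.932 to 0.977. Beyond calling them biological replicates, the labels do not say what separates the arrays of a group.

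Of 22810 probe sets, 64 controls were left out. The platform annotation names 1 gene for 13513 probe sets, several for 503 and none for 8794, and 13436 matched a locus in the TAIR10.1 table. Signals were analysed as log2(signal + 22), 22 being the 20th percentile of all values. Tests covered the 16765 probe sets above 87.4, the 40th percentile, on at least 3 arrays. One limma 3.58.1 fit (R 4.3.3, lmFit and eBayes with trend, 10 groups, 28.6 degrees of freedom) gave 2-sided moderated tests, called at an adjusted p below 0.05. For genes with several probe sets, the brightest was used. List genes and markers to which no probe set of their own was matched were not tested, whatever their signal.

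The members and gene lists were chosen with earlier results of these data known. Named were the members, list genes called at 96 h (at most 6 per list and organ), and genes of similar pattern. The uncalled genes UGT73C7, UGT73B1 and UGT74F1, and the members of small counts, were named after their values were seen. Alternatives changed the pseudocount, the scaling, the filter, the variance model, the replicate block and single arrays. No sequences are printed.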

Additional observations from a re-analysis of the deposited data

Results flagged for a closer look

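In UGT73B5 all 3 root arrays lay below the root mean at 0 h and all 3 aerial arrays above the aerial mean at 0 h at each later time, a split seen in 8.1%, 8.66%, 11.1% and 13.1% of tested probe sets at 12, 24, 48 and 96 h. This asks less than groups without overlap, and at 24 h the aerial values overlapped those of 0 h. The root change minus the aerial change was -2.52, -2.88, -3.4 and -3.2. UGT73B4 showed the split at 12 and 24 h (-2.60 and -2.62). At 12 h its root values overlapped those of 0 h, and without root 0 h replicate 1 only 1 of 3 root arrays lay below the 0 h mean, so that the split was lost. UGT88A1 showed the reverse split at all 4 times, with 2.79, 3.22, 4.74 and 5.20, as did 10.2%, 13.1%, 13.1% and 14.8% of tested probe sets. At 24 h its aerial values overlapped those of 0 h, and the split was lost without aerial 0 h replicate 2. These differences between the organs were not tested, since the genes were chosen from these data.

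In the gene lists the root change minus the aerial change by 96 h passed limma's test, adjusted over all probe sets, in these named genes. It was negative in GSTU25 (-5.47), GRX480 (-4.95), UGT71C1 (-3.56), UGT76B1 (-3.41), UGT72E2 (-3.05), UGT72E3 (-2.43), UGT85A2 (-1.51) and UGT73D1 (-1.46). It was positive in UGT71B1 (2.88), UGT76C2 (2.75), UGT78D1 (2.45), UGT78D2 (2.25) and AER (1.07). Of the organ markers, RCA (2.95), LHCB4.2 (2.94) and PSAN (4.34) were positive, and AT5G17820 (-4.33) and AGL21 (-1.06) negative. Genes named for a pattern like that of a member were chosen for it and were not tested. The gene lists were chosen with earlier results of these data known, so calls in them give no independent support. Over the 34 other family genes the difference was called positive in 7 and negative in 10, against 29.0% and 23.0% of all tested probe sets.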

How the results depend on the processing

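Groups of low signal set the size of several member differences. Without a pseudocount and with 100, UGT73B4 gave 5.03 and 2.65 for the aerial change at 96 h, 6.62 and 4.11 for root minus aerial at 0 h, and -4.88 and -2.5 for the root minus the aerial change at 96 h. UGT73B5 gave 1.57 and 0.61, 5.42 and 3.76, and -3.7 and -2.53 for the same results. UGT88A1 gave 3.6 and 2.58 for the root change at 96 h, -6.2 and -5.06 for root minus aerial at 0 h, and 5.53 and 4.44 for the last. Leaving out 1 array at a time gave 0.62 to 1.55 for the aerial change of UGT73B5 at 96 h, 4.27 to 5.21 for its difference at 0 h, and -3.63 to -2.70 for its root minus aerial change. Of the 34 other family genes, 5 to 9 were then called higher in roots and 3 to 5 lower in aerial explants at 96 h, and 3 were lower in aerial explants without a pseudocount. The cause of these shifts in counts was not tested. Scaling moved no member difference by more than the spread between replicates (72 of 72 stayed within it under median centring and under quantile normalization), although the median root change of all probe sets at 96 h moved by -0.219 under centring. Counts of calls for the family at 12 h for root minus aerial change went from 3 lower to 6 with either scaling or a pseudocount of 100. Same-numbered arrays of different groups correlated in their deviations with a median r of 0.0334 (-0.117 to 0.389), against -0.0236 for different numbers. Since not every such pair exceeded 0.1 and the labels give no shared source, the numbers were not taken as pairs, although 24 of 30 arrays correlated best with their own number, a hint from the data of a shared replicate effect. With the replicate block the estimates of the members are unchanged by construction (UGT73B5 in roots at 96 h, -2.08), and the family counts at 96 h were 9 higher and 7 lower in roots and 9 and 5 in aerial explants, while the 12 h count of 3 became 5. For the changes at 96 h of the list genes named by rule (at most 6 per list and organ), 1 of 126 refits without 1 array lost its call. That was AER in roots. Other named calls, among them those of UGT84A3, UGT84A4 and UGT72B3 and the aerial rise of UGT71C1, were followed only through the family counts. Some of these calls may be among those lost there.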
